A study of Mus musculus with 3 samples.

Results

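The genes described here are 9 of the 32285 listed in the count matrices: the immunoglobulin heavy chain constant genes Ighm, Ighd and Igha, the light chain constant genes Igkc, Iglc1, Iglc2 and Iglc3, and 2 genes of antibody assembly and secretion, Jchain and Mzb1. They were matched by gene symbol, and each symbol was found once. They were read in mouse bone marrow, in 3 single-cell RNA libraries made by a droplet method that reads the 3' end of transcripts, 2 from marrow labelled Ep300-Znf384-V5-HA, a fusion of the acetyltransferase gene Ep300 with the zinc finger gene Znf384 that carries V5 and HA tags, and 1 from marrow labelled wild type. The mice were males, 6 weeks old. A library combined 5000 sorted live marrow cells with 5000 live cells negative for lineage markers, after lysis of red cells. The labels give neither the promoter or cell type in which the fusion was expressed nor the number of animals behind a library. The genotype labels were not checked here against a transcript of the fusion. Because lineage-negative cells were added at a fixed number, shares of B cells or plasma cells are shares of this mixture, not of marrow.

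A B cell first rearranges its heavy chain locus and displays a mu chain, encoded by Ighm, with a surrogate light chain. It then rearranges a light chain locus, kappa (Igkc) or lambda (Iglc genes), and as it matures it makes IgD from Ighd by alternative processing of the same heavy chain transcript. Plasma cells devote much of their RNA to one heavy and one light chain, and those making IgM or IgA also make the joining chain (Jchain). Mzb1 is an endoplasmic reticulum protein that aids immunoglobulin assembly in B cells and plasma cells and is also made by plasmacytoid dendritic cells. Transcription through unrearranged constant genes gives sterile transcripts without a variable segment, and a 3' tag does not tell them from coding ones.

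In GENCODE M21 (GRCm38), Ighm (chr12:113418558-113422730), Ighd (chr12:113406604-113416324) and Igha (chr12:113254830-113260236) lie on the minus strand of the heavy chain locus. Igkc lies at chr6:70726435-70726966 on the plus strand. The lambda genes lie on the minus strand, Iglc1 at chr16:19061618-19062071, Iglc3 at chr16:19065230-19065681 and Iglc2 at chr16:19198396-19200351. Jchain lies at chr5:88519809-88527891 on the minus strand. The start of the 3 lambda constant regions, 120 coding bases each from the annotated GENCODE transcripts with the bases that differ from Iglc2 in capitals, shows how close a pair of them are:
Iglc2: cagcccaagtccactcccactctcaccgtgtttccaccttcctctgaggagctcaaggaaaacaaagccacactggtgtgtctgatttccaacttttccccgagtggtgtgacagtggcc
Iglc3: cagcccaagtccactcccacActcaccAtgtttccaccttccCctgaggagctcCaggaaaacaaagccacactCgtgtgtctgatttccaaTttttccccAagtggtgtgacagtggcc
Iglc1: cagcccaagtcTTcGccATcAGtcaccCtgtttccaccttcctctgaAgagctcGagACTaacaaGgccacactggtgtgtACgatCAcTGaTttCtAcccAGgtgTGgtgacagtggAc
Iglc3 differed from Iglc2 at 7 of these bases and Iglc1 at 28. Over whole transcripts Iglc2 and Iglc3 were 95.4% identical, and over their last 140 bases, where 3' tags fall, 92.6% identical, whereas Iglc1 and Iglc2 were 66.7% identical there. No stretch of 91 bases of Iglc2 (0 of 368) occurred in Iglc3 or Iglc1. Of stretches of 25 bases, 130 of 434 occurred in Iglc3 and 0 in Iglc1. How reads were divided between Iglc2 and Iglc3 was not tested.

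After filtering and removal of predicted doublets, 7313 cells remained in fusion library 1, 6895 in fusion library 2 and 7431 in the wild-type library, with median depths of 7360, 10008 and 7430 unique molecular identifiers (UMIs) per cell. Between 9 and 17 barcodes of the kept cells were shared by any pair of libraries. Cells were clustered without the immunoglobulin, T cell receptor, Jchain and Mzb1 genes, and clusters were named from marker lists that hold none of the 9 genes. The pre-B to mature B class held 165, 156 and 351 cells in fusion library 1, fusion library 2 and the wild-type library (2.26%, 2.26% and 4.72% of cells), and the pro-B class held 58, 76 and 155 (0.793%, 1.10% and 2.09%). All 10 listed B cell markers were detected in the former class in every library, at a summed 10955 to 11734 CPM (counts scaled to a common total), and the 12 T and NK markers summed to 99.3 to 179 CPM there. No cluster was named for plasma cells. Levels below are CPM of the summed UMIs of a class in a library, and comparisons between genotypes are edgeR quasi-likelihood tests on those sums with Benjamini-Hochberg adjustment over all genes tested; the wild-type group has 1 library, so its variation was assumed to equal that between the fusion libraries, and nothing in the labels says whether these came from separate animals.

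In 18 cells at least 10% of all UMIs came from 13 immunoglobulin constant genes (14.2% to 62.6%), and the highest value in any other cell that passed the filter was 6.07%. This cut was set after the values were seen. There were 4 such immunoglobulin-rich cells in fusion library 1, 4 in fusion library 2 and 10 in the wild-type library. The doublet caller had marked 4 of 4, 3 of 4 and 0 of 10 of them as doublets, so that 0, 1 and 10 remained among the kept cells. The marked cells held 4326 to 25573 UMIs and the unmarked wild-type cells 1833 to 25690 UMIs. The share of cells was 0.0531% (95% Clopper-Pearson interval 0.0145 to 0.136), 0.0555% (0.0151 to 0.142) and 0.131% (0.0629 to 0.241) with marked cells kept, and 0% (0 to 0.0504; a floor of 3 counts of the total is 0.0410%), 0.0145% (0.000367 to 0.0808) and 0.135% (0.0646 to 0.247) with them removed. These intervals cover counting error only. Both fusion libraries lay below the wild-type library in either count, but an exact permutation test of 2 against 1 libraries gives p = 0.333 (two-sided), the smallest it can give.

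Each immunoglobulin-rich cell carried a single dominant heavy chain: in 18 of 18 cells one heavy chain gene held at least 90% of heavy chain constant UMIs. Igha led in 3 cells of fusion library 1, 1 of fusion library 2 and 3 of the wild-type library. Ighm led in 0, 3 and 7 cells, and Ighg2b, a constant gene of IgG, led in 1 cell of fusion library 1. Jchain was detected in 18 of 18 cells (5 to 2492 UMIs), Mzb1 in 17 of 18 and Ighd in 0. At least 90% of light chain UMIs were Igkc in 15 of 18 cells. Of the others, 1 wild-type cell had 1980 Iglc1 UMIs and 0 Igkc UMIs, 1 cell of fusion library 2 had 1966 Iglc2 UMIs against 17 Igkc UMIs, and 1 cell of fusion library 2, marked as a doublet, had both 5335 Igkc and 3421 Iglc2 UMIs. All 18 cells had UMIs of at least 3 of 10 plasma cell markers that are not among the 9 genes. Of these markers, at least Xbp1, Creld2, Fkbp11, Sdc1, Slamf7, Irf4, Derl3 and Prdm1 were also read in the sums without the rich cells. The share of other cells that reached 3 markers is not given here. In 16 of the 18 cells there were UMIs of at least 2 of Sdc1 (syndecan-1), Tnfrsf17 (the receptor BCMA), Derl3 and Prdm1.

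**Figure D1:**
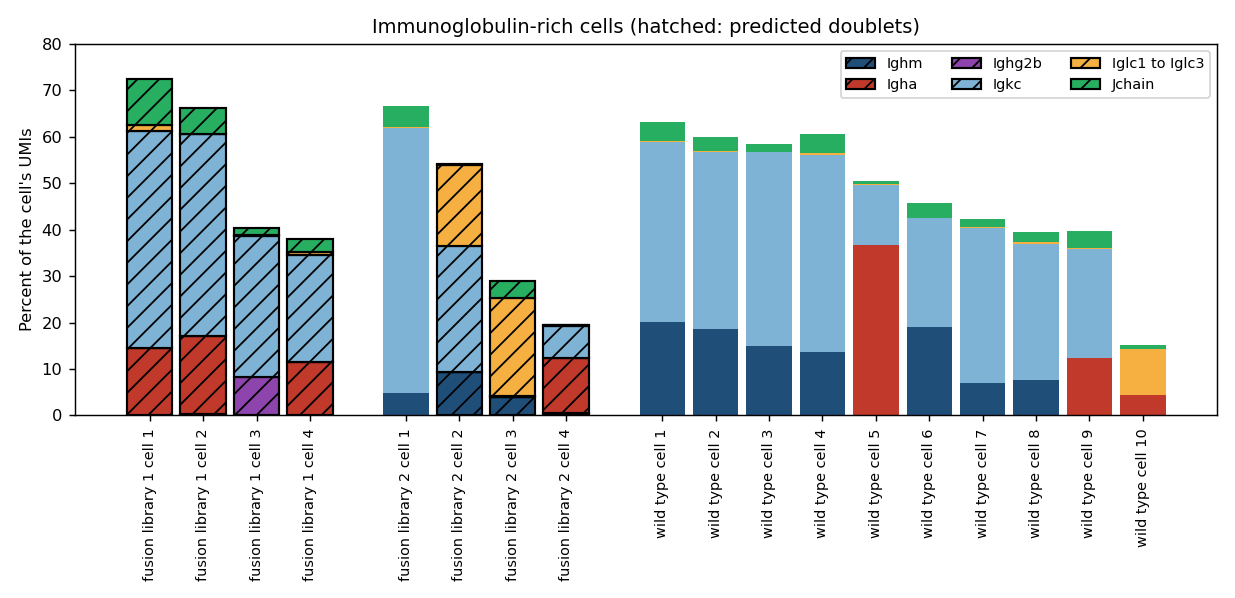
Percent of each cell's UMIs (bars, from 0) that came from the heavy chain genes Ighm, Igha and Ighg2b, the light chain genes and Jchain in the 18 immunoglobulin-rich cells, 1 bar per cell. Hatched bars are the 7 cells marked as doublets, which lie in the fusion libraries; the 10 wild-type cells carry no mark.

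The richest cell of fusion library 1 held 3729 Igha, 11958 Igkc and 2492 Jchain UMIs among 25573. The kept cell of fusion library 2 held 758 Ighm, 9148 Igkc and 712 Jchain UMIs among 16002. The richest wild-type cell held 5165 Ighm, 9943 Igkc and 1065 Jchain UMIs among 25690. In 3 wild-type cells the leading heavy and light segments were Ighv11-2 and Igkv14-126, with 47, 12 and 5 UMIs of the former and 67, 32 and 21 of the latter. That pair was chosen after its values were seen. It is known from B-1 cells whose antibodies bind phosphatidylcholine. In the richest cell of fusion library 1, marked as a doublet and led by Igkc, the leading light segment was Iglv1, a lambda segment. It had 147 UMIs against 36 of Igkv4-57-1. The next richest cell there, also marked and led by Igkc, had 232 UMIs of Iglv1 against 30 of Igkv5-48. Both cells were likewise picked after their values were seen.

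A gate that uses none of the 9 genes, UMIs of at least 2 of Sdc1, Tnfrsf17, Derl3 and Prdm1 (a receptor, surface and secretory set with the plasma cell regulator Blimp-1) and none of Siglech, found 4, 1 and 18 cells with doublets removed, of which 0, 1 and 8 were immunoglobulin-rich. With doublets kept it found 8, 4 and 19 cells, of which 4, 4 and 8 were. The gate therefore took in cells without high immunoglobulin RNA, whose highest immunoglobulin share was 0.951% of UMIs, and missed 2 rich wild-type cells.

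Most Igha, Jchain and Igkc UMIs of the wild-type library lay in these few cells. Of wild-type UMIs in kept cells, 90.0% of Igha, 93.6% of Jchain, 82.2% of Igkc, 51.4% of Iglc1 and 38.6% of Ighm lay in the 10 rich cells. In fusion library 2 the 1 kept rich cell held 93.9% of Jchain and 64.7% of Igkc. In the clustering, 9 of the 10 wild-type rich cells and the kept fusion cell fell in a class named from early progenitor markers, and the other wild-type cell fell in the T and NK class, so values of those classes are given below without them.

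Outside the rich cells, Ighm and Igkc followed the B lineage. Ighm was 6683, 7340 and 7348 CPM in the pre-B to mature class of fusion library 1, fusion library 2 and the wild-type library. It was 2436, 2571 and 2856 CPM in pro-B cells. Igkc was 8084, 8312 and 7361 CPM in the pre-B to mature class and 887, 696 and 797 CPM in pro-B cells. As CPM, both genes were thus lower in pro-B cells than in later B cells in every library. For both genes these classes ranked first and second with no overlap between neighbouring classes. Pro-B cells were deeper, with a median of 6660 UMIs per cell against 2522. Per cell, Ighm was not lower in pro-B cells, with 1140, 1832 and 4194 UMIs in 58, 76 and 155 cells. Later B cells held 3015, 3400 and 6720 Ighm UMIs in 165, 156 and 351 cells. Ighd was 224, 227 and 414 CPM in the pre-B to mature class and 42.7, 36.5 and 35.4 CPM in pro-B cells. The lambda genes were far lower in pro-B cells. Iglc1 was 1394, 2580 and 1903 CPM there and 14.96, 1.40 and 8.17 CPM in pro-B cells. Iglc2 was 1800, 1852 and 1088 CPM in the later class, with 0, 0 and 8 UMIs in pro-B cells, and those 8 UMIs lay in a single cell. Mzb1 (chr18:35647267-35649367, minus strand) had another order, with 538, 535 and 518 CPM in pro-B cells and 536, 404 and 371 CPM in later B cells, ranges that overlap.

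Jchain and Igha were close to absent from B cells that were not immunoglobulin-rich. Jchain had 1, 2 and 11 UMIs in the pre-B to mature class (2.22, 4.32 and 12.0 CPM), no more than 1 per cell, and its highest mean level was in mature neutrophils (3.38, 2.14 and 14.8 CPM), again with at most 2 UMIs per cell. Igha was 8.87, 21.6 and 16.4 CPM in the pre-B to mature class, at most 2 UMIs per cell, and 4.22, 8.98 and 14.0 CPM in mature neutrophils. Neighbouring classes in the order of either gene overlapped throughout the first 6 ranks.

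**Figure D2:**
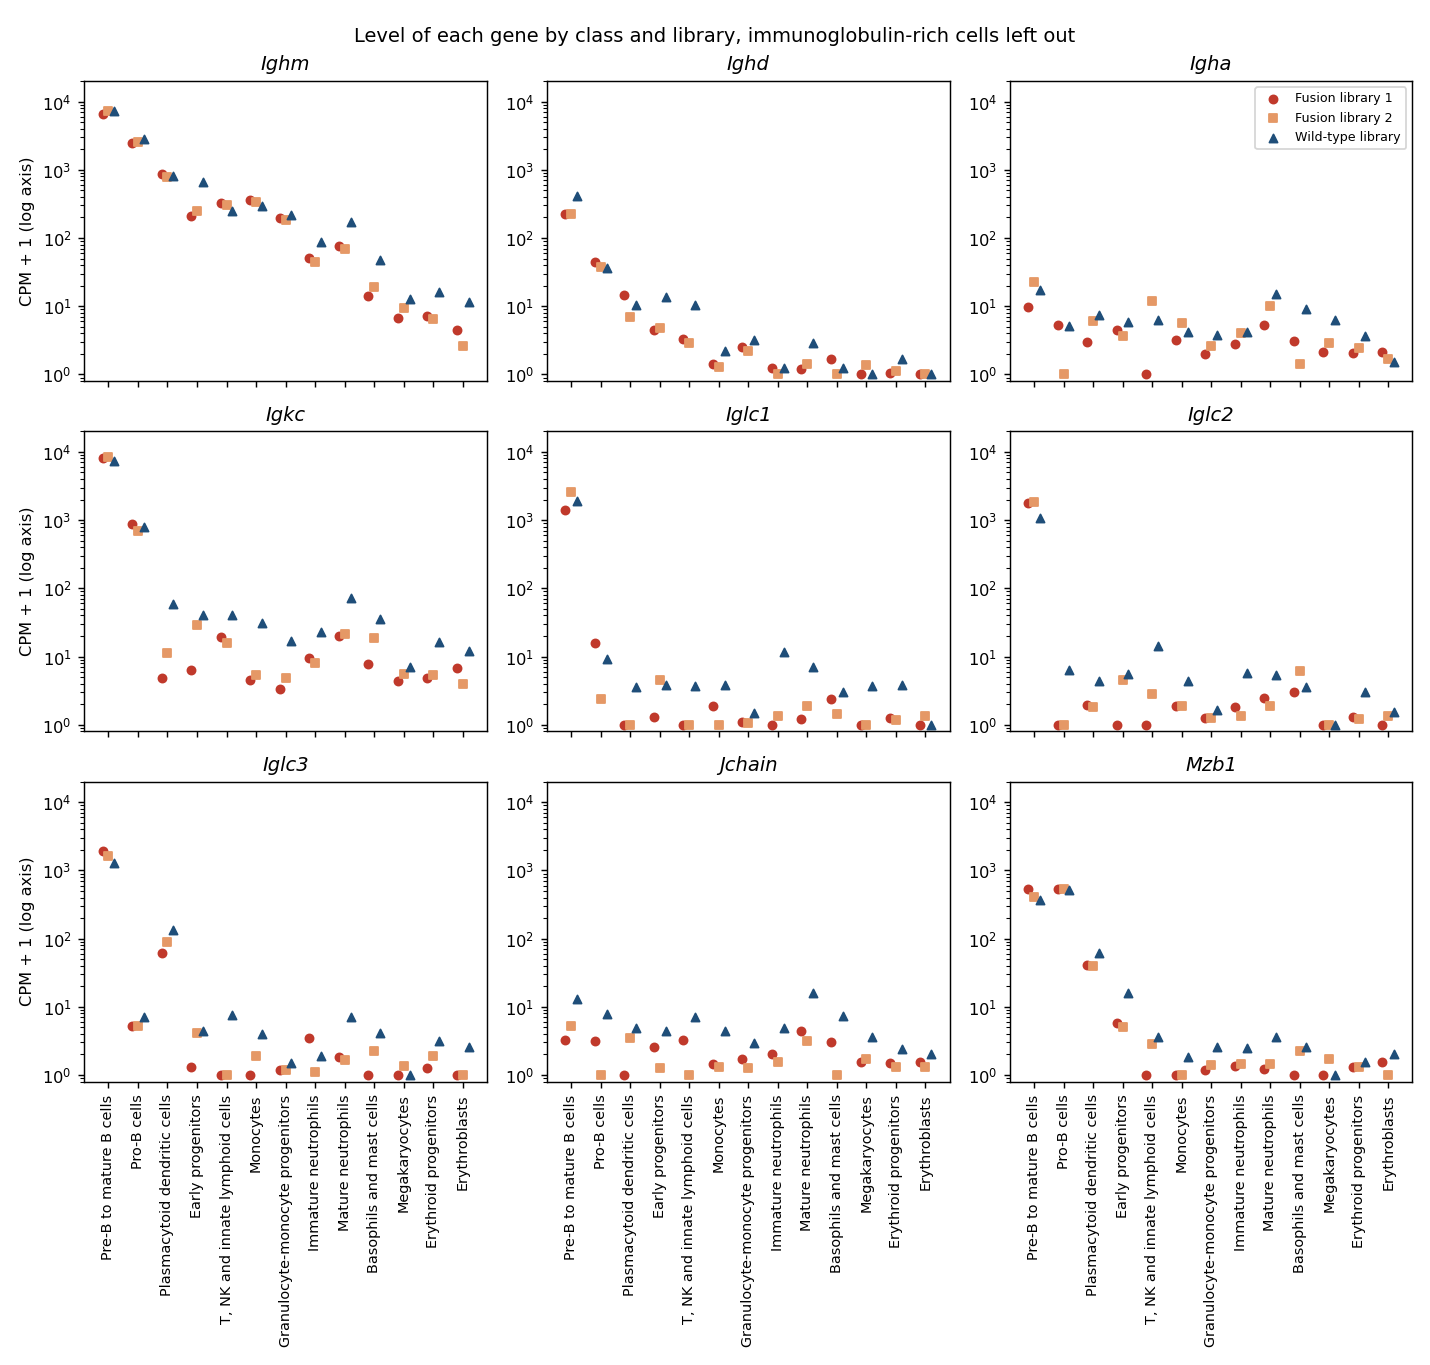
CPM + 1 (log axis) of each of the 9 genes in each of 13 marker-defined classes, 1 point per library, immunoglobulin-rich cells left out. Ighm stands at or above 182 CPM in all 3 libraries in 7 classes, whereas Igkc stands above 100 CPM only in the pro-B and pre-B to mature classes.

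Within the B lineage classes, 3 gates were set on other genes to mark stages. Only some of the constant genes rose in CPM from gate to gate in every library, Igkc and Ighd among them. Cells with at least 2 UMIs of the surrogate light chain genes Igll1, Vpreb1 and Vpreb2 numbered 38, 49 and 82. Cells with a UMI of Fcer2a, Cr2 or Cd55 and fewer than 2 surrogate UMIs were taken as mature and numbered 81, 81 and 170. A single UMI of any of these genes sufficed. The rest, 104, 102 and 254 cells, were taken as small pre-B and immature cells. Mean Ighm over the 3 libraries rose from 2169 ± 70.0 CPM (SD, n = 3) in surrogate-positive cells to 6064 ± 398 in the rest and 6195 ± 77.9 in mature cells; the last 2 overlap. Igkc rose from 489 ± 191 to 4849 ± 436 and 7711 ± 905 CPM. Ighd rose from 31.5 ± 14.1 to 109 ± 31.6 and 379 ± 189 CPM, and in every library it was highest in the mature gate. Iglc1 was 3.69 ± 6.39, 1313 ± 655 and 1545 ± 342 CPM, and the last 2 overlap. In fusion library 2 it was 2068 CPM in the rest and 1602 CPM in mature cells. Mzb1 ran the other way, at 620 ± 18.5, 414 ± 71.0 and 391 ± 91.02 CPM. These are descriptions of CPM, since the stages come from the same libraries and differ in depth. Median depths were 5742, 10328 and 8872 UMIs in surrogate-positive cells and 2659.5, 2670 and 2574 UMIs in the rest. Per cell, Ighm was 17.6, 23.8 and 26.7 UMIs in surrogate-positive cells. In the rest it was 18.5, 20.6 and 21.7 UMIs per cell, higher only in fusion library 1.

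**Figure D3:**
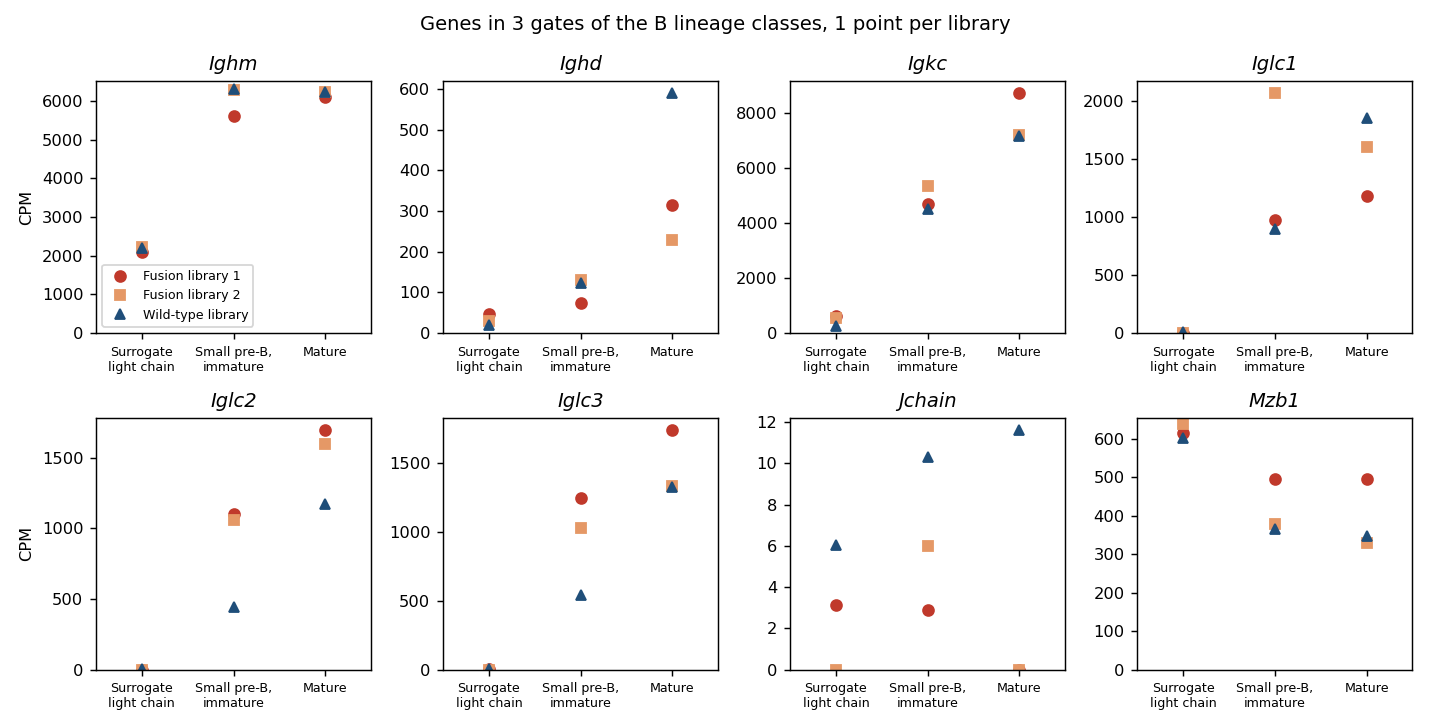
CPM of 8 of the genes (all but Igha) in 3 gates of the B lineage classes, 1 point per library, each axis starting at 0. Ighm, Ighd, Igkc and the Iglc genes are lowest in the surrogate light chain gate in every library, and Mzb1 is highest there.

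Light chain UMIs did not divide the B cells cleanly into kappa and lambda cells. Among cells of the pre-B to mature class with at least 5 light chain UMIs (156, 152 and 324 cells), Igkc held at least 90% of them in 23.7% (95% Clopper-Pearson interval 17.3 to 31.2), 15.1% (9.84 to 21.8) and 23.1% (18.7 to 28.1) of cells. The Iglc genes held at least 90% in 10.3% (5.98 to 16.1), 16.4% (10.9 to 23.3) and 12.3% (8.97 to 16.4). Neither did in 66.0% (58.0 to 73.4), 68.4% (60.4 to 75.7) and 64.5% (59.0 to 69.7). The median share of Igkc per cell was 74.1%, 72.9% and 75%, with a median of 32, 38.5 and 29 light chain UMIs per cell. With at least 20 light chain UMIs the wild-type share of mixed cells was 69.8% (63.3 to 75.8). In erythroid progenitors of the wild-type library, which should lack these genes, Igkc was 15.1 CPM and each Iglc gene 2.06 to 2.81 CPM. Those cells were much deeper than B cells, so their CPM is not a matched measure of free RNA (RNA from outside the cell) in B cells. Whether the mixed cells carry sterile lambda transcripts, free RNA or RNA of another B cell was not tested. Among cells led by lambda, Iglc1 was the leading gene in 7 of 16, 10 of 25 and 24 of 40 cells.

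Genotype comparisons within B cells called none of the 9 genes. In the pre-B to mature class 8 of the 9 were tested and 0 were called, and 0.0% of 6780 genes were called (282 at an unadjusted p under 0.05; DESeq2 also called none of the 8). Ighd was 224 and 227 CPM in the fusion libraries and 414 CPM in the wild-type library. The fusion libraries were both lower, by a log2 fold change of -0.92 ± 0.14 (SE), with an edgeR adjusted p of 0.875. This call depended on the clustering: at Leiden resolutions 0.5 and 2 the change was -0.90 and -0.92 with edgeR adjusted p of 0.0428 and 0.0394. Within the mature gate Ighd was 316 and 229 CPM against 591 CPM, and within the small pre-B and immature gate 72.9 and 132 CPM against 123 CPM. Iglc2 was higher in both fusion libraries, by 0.71 ± 0.15, edgeR adjusted p = 0.875. Ighm changed by -0.11 ± 0.15 and Igkc by 0.12 ± 0.12, less than their standard errors. In pro-B cells 5 of the 9 were tested and 0 called, against 0.664% of 7682 genes, with Ighm at -0.22 ± 0.28, Igkc at -0.04 ± 0.26 and Mzb1 at 0.03 ± 0.26.

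Other genes of the pathway were not called in these classes, with 1 exception. In the pre-B to mature class 0 of 6780 genes were called, so a missing call there does not show that a gene was unchanged. None of 15 tested genes of a B cell receptor list (0 of 14 in pro-B cells) and none of 15 tested genes of a plasma cell and secretory list (0 of 15 in pro-B cells) were called, with list medians of -0.18 and -0.02 on the log2 scale in the pre-B to mature class beside 0.01 over all genes. By size of the fold change, the 2 named from the receptor list were Cd72, an inhibitory coreceptor, at -0.80 ± 0.19 (edgeR adjusted p = 0.875), and Fcmr, the IgM Fc receptor, at -0.50 ± 0.18. From the secretory list they were Sdf2l1 at -0.79 ± 0.22 and Txndc5, an oxidoreductase of the endoplasmic reticulum, at 0.71 ± 0.16. The surrogate light chain genes Igll1, Vpreb1, Vpreb2 and Vpreb3 were not called in pro-B cells. The only call was Ighg2b, lower in fusion pro-B cells, with 1 and 0 UMIs against 36 in the wild-type library; those 36 UMIs lay in 5 cells, 17 of them in 1 cell.

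Over all cells summed per library, the 9 genes were lower in both fusion libraries than in the wild-type library. All 9 were called, against 11.8% of 15471 genes called lower. Ighm was 112 and 129 CPM against 483 CPM (log2 fold change -1.99 ± 0.20, edgeR adjusted p = 4.73e-07). Igkc was 50.3 and 141 CPM against 643 CPM (-2.73 ± 0.34). Igha was 1.48 and 2.25 CPM against 40.2 CPM (-4.41 ± 0.18), and Jchain was 0.813 and 7.54 CPM against 51.5 CPM (-3.59 ± 0.52). DESeq2 did not call Igkc or Jchain (adjusted p of 0.175 and 0.344). Without fusion library 1 the Igkc and Jchain values were -2.16 and -2.74, and without fusion library 2 they were -3.69 and -5.96. The share of B lineage cells was also lower in the fusion libraries, as given above, and in such sums fewer cells and less RNA per cell cannot be told apart.

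Treatment of the rich cells changed these values. With the rich cells left out all 9 were again called lower (11.9% of 15450 genes called lower), but Igha was 1.48 and 2.25 CPM against 4.02 CPM (-1.09 ± 0.25), Jchain 0.813 and 0.458 CPM against 3.28 CPM (-2.37 ± 0.30), and Igkc 50.3 and 49.8 CPM against 114 CPM (-1.19 ± 0.14). With predicted doublets kept, 6 of the 9 were called (11.8% of 15588 genes called lower). Igha was then 101 and 6.76 CPM against 38.5 CPM (0.47 ± 0.67, edgeR adjusted p = 0.697), Iglc2 was 13.1 and 57.7 CPM against 15.3 CPM (1.24 ± 0.44, edgeR adjusted p = 0.0629), and Jchain was 48.3 and 10.6 CPM against 49.3 CPM (-0.75 ± 0.40, edgeR adjusted p = 0.229). Ighm, Ighd, Igkc, Iglc1, Iglc3 and Mzb1 were lower in both fusion libraries under all 3 treatments.

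**Figure D4:**
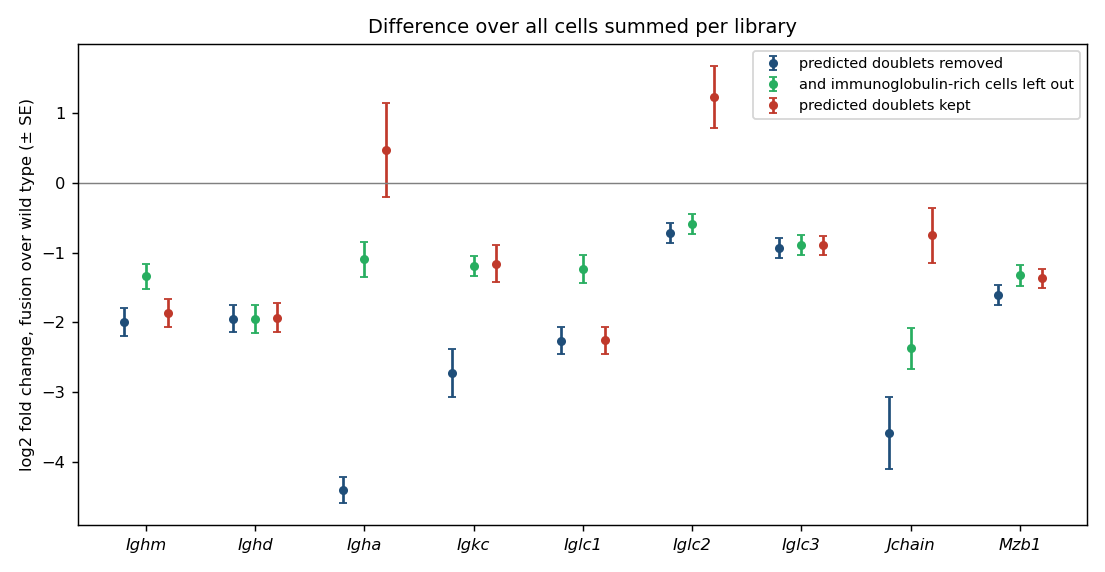
Log2 fold change (± SE) of fusion over wild type for all cells summed per library, for each of the 9 genes under 3 treatments of the cells, points below 0 being lower in the fusion libraries. Igha and Iglc2 lie above 0 only with predicted doublets kept, and Ighd and Iglc3 differ little between treatments.

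Ighm RNA was also present outside the B lineage, and its ratio to Igkc differed between classes. Ighm was 859, 789 and 818 CPM in the plasmacytoid dendritic class, 362, 334 and 289 CPM in monocytes, 328, 300 and 245 CPM in T and NK cells and 194, 182 and 220 CPM in granulocyte-monocyte progenitors. In erythroid progenitors it was 6.29, 5.46 and 15.3 CPM. The ratio of Ighm to Igkc UMIs was 1.66 (95% interval 1.39 to 1.99), 1.25 (1.05 to 1.495) and 1.01 (0.874 to 1.18) in erythroid progenitors. It was 220 (85.5 to 808), 77.8 (44.3 to 151) and 13.9 (11.7 to 16.7) in the plasmacytoid dendritic class, 104, 75.2 and 9.66 in monocytes and 18.1, 20.3 and 6.15 in T and NK cells. These intervals treat each UMI as an independent count and do not measure the spread between libraries. UMIs were bunched in some cells: 53.8% of light chain UMIs of wild-type erythroid progenitors lay in 9 of 1040 cells. After thinning each cell to 1000 UMIs, 63.8%, 48.8% and 58.5% of plasmacytoid dendritic cells held an Ighm UMI (99.1%, 98.4% and 96.8% unthinned), against 0.546%, 0.749% and 2.40% of erythroid progenitors (9.55%, 8.57% and 14.5% unthinned). Median depths were 8248.5, 8130 and 7204 UMIs in the former and 23447, 23439.5 and 21503 UMIs in the latter.

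**Figure D5:**
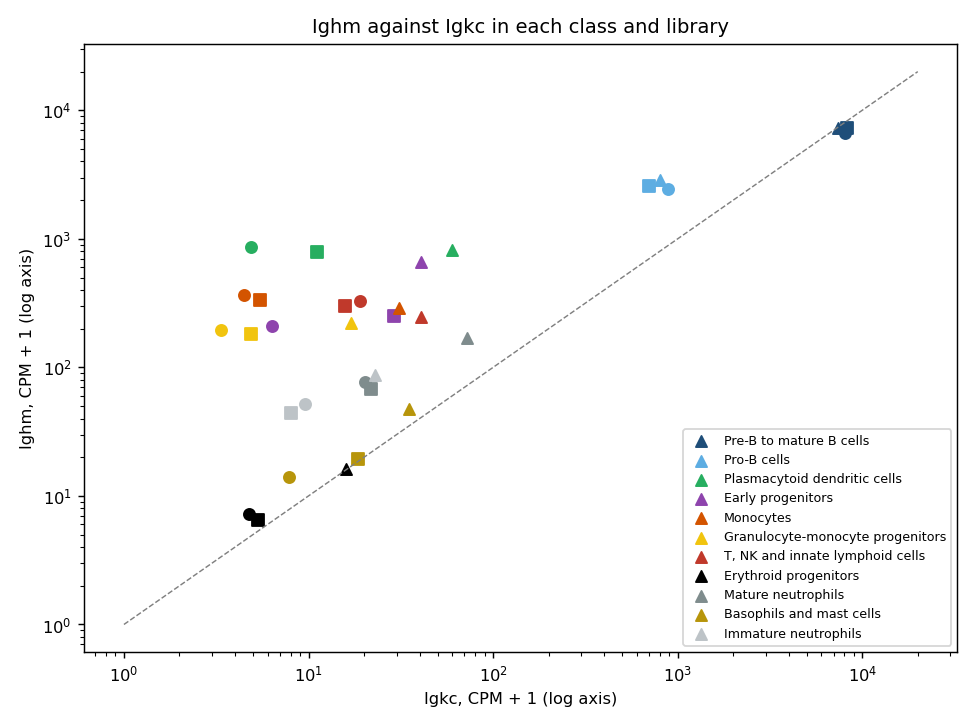
Ighm against Igkc, both as CPM + 1 on log axes, in 11 classes, 1 point per library (circle fusion library 1, square fusion library 2, triangle wild type), immunoglobulin-rich cells left out; the dashed line marks equal values. Erythroid progenitors and later B cells lie near the line, and plasmacytoid dendritic cells, monocytes, granulocyte-monocyte progenitors and T and NK cells lie above it.

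The plasmacytoid dendritic class carried 2 more of the genes. Iglc3 was 59.6, 87.1 and 132 CPM there while Iglc2 was 0.977, 0.846 and 3.43 CPM and Iglc1 had 0, 0 and 6 UMIs, and Mzb1 was 40.1, 38.1 and 61.3 CPM. For both genes it was the highest class outside the B lineage, with no overlap with the next. Cells of this class with at least 2 UMIs of Siglech, a receptor of plasmacytoid dendritic cells, had 135, 188 and 395 CPM Iglc3, 91.02, 81.9 and 184 CPM Mzb1 and 1110, 1147 and 1399 CPM Ighm. Cells without a Siglech UMI had 0, 0 and 1 UMIs of Iglc3, 0 Mzb1 UMIs in each library, and 569, 451 and 514 CPM Ighm. This split was chosen after the data were seen. At Leiden resolutions 0.5 and 2 the class was smaller, 29, 46 and 96 cells, and held 61 of the 61, 103 of the 103 and 307 of the 308 Iglc3 UMIs, at 381, 368 and 561 CPM, with Ighm at 1316, 1360 and 1507 CPM. Markers of B cells summed to 106, 113 and 155 CPM in the class, against 10955, 11734 and 11527 CPM in later B cells, and Jchain was 0, 2.54 and 3.86 CPM.

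In that class 1 of 5 tested genes was called between genotypes, against 0.439% of 9121 genes called. Igkc was 3.91 and 10.2 CPM against 58.7 CPM (-3.03 ± 0.37, edgeR adjusted p = 3.53e-05); the highest single cell held 26 of the 137 wild-type UMIs. This call was lost under the stricter cell filter (-0.80 ± 0.30, edgeR adjusted p = 0.330) and with DESeq2 (adjusted p = 0.0809). The value was -2.40 without fusion library 1 and -3.60 without fusion library 2. Neither the other Leiden resolutions nor the setting with doublets kept retested the Igkc call. The class was not fitted there, since a fit needed at least 50 cells in each library. Ighm did not differ by more than its error (-0.02 ± 0.24). Iglc3 was lower in both fusion libraries by 0.86 ± 0.24 on the log2 scale and Mzb1 by 0.68 ± 0.25, with edgeR adjusted p of 0.161 and 0.527. Igkc was also lower in the fusion libraries where only traces were present. In erythroid progenitors it was 3.79 and 4.36 CPM against 15.1 CPM (-1.90 ± 0.17, edgeR adjusted p = 0.0198), 1 of the 4 called there out of 9 tested, against 0.39% of 13319 genes called lower. None of the 9 was called there under the stricter cell filter (Igkc -2.002 ± 0.16, edgeR adjusted p = 0.0574) or without a gene filter (-1.89 ± 0.17, edgeR adjusted p = 0.600). Almost no gene of any kind was called lower in those settings, 1 of 12851 and 0 of 18553. DESeq2 called the same 4 genes, Ighm, Igkc, Iglc1 and Iglc2 (63 of 13319 genes called lower). Of the wild-type light chain UMIs in erythroid progenitors, 53.8% lay in 9 of 1040 cells. In mature neutrophils it was 19.2 and 20.7 CPM against 70.8 CPM (-1.91 ± 0.22), with 5 of 7 tested genes called against 4.46% of 9529 called lower. The count ran from 3 of 7 under the stricter cell filter (308 of 8588 genes called lower) to 7 of 9 without a gene filter (522 of 14896 genes called lower). The genotypes filled different clusters of this class: clusters 6, 7 and 15 held 543, 1110 and 240 cells of fusion library 1, 435, 863 and 141 of fusion library 2 and 2, 2 and 0 wild-type cells, and cluster 23 held 9, 17 and 1398. In immature neutrophils cluster 4 held 850, 703 and 90 cells, cluster 5 held 8, 22 and 720, and cluster 10 held 313, 279 and 267. The part of this difference in cells in the values of both neutrophil classes was not tested.

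In the other classes, rich cells left out, 5 of 8 tested genes were called lower in immature neutrophils (3.06% of genes lower), 4 of 5 in basophils and mast cells (5.8%), 1 of 6 in monocytes (0.318%), 0 of 6 in granulocyte-monocyte progenitors (0.0164%), 0 of 2 in erythroblasts (1.39%), 0 of 2 in megakaryocytes (0.0728%) and 0 of 2 in T and NK cells (0.979%). In the last class 4 of 6 were called with the 1 rich cell included (1.02%). At an unadjusted edgeR p under 0.05 the counts in the last 4 classes without rich cells were 4 of 6, 2 of 2, 0 of 2 and 1 of 2. Over all genes, in either direction, the counts were 795 of 12173, 789 of 8301, 645 of 9619 and 574 of 7458. DESeq2 called Igkc in granulocyte-monocyte progenitors (adjusted p = 0.00045), where edgeR gave -2.36 ± 0.29 with an adjusted p of 0.115. Igkc was also called there by edgeR with doublets kept (-2.43 ± 0.23, adjusted p = 0.0439) and without a gene filter. Without that filter 3 of 9 were called in these progenitors, with Jchain and Mzb1 (259 of 17595 genes called lower). On sums that did not leave out rich cells, Igha alone of 9 was called there at Leiden resolution 0.5 (4 of 12068 genes called lower). The same held under the stricter cell filter (1 of 12335 genes called lower). In that class 1 wild-type cell held 128 of the 414 wild-type Igkc UMIs. In immature neutrophils 2 of 4 tested genes, Ighm and Igkc, were called with doublets kept (74 of 10355 genes called lower). DESeq2 gave an adjusted p for 5 of 8 genes there and called the same 2 (47 of 10427 genes called lower). In erythroblasts Ighm was called at Leiden resolution 0.5, 1 of 2 tested (200 of 9692 genes called lower). Without a gene filter it was 1 of 8 tested in erythroblasts (117 of 13149 genes called lower). In basophils and mast cells DESeq2 gave an adjusted p for 1 of the 5 genes and did not call it, and Igkc was -0.996 without fusion library 1 and -2.32 without fusion library 2. In monocytes Igkc was not called at clustering resolution 2 (-2.63 ± 2.02, edgeR adjusted p = 0.885). None of the 9 genes was called higher in any of these classes under any alternative tested.

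Ighm in monocytes was 362 and 334 CPM in the fusion libraries and 289 CPM in the wild-type library, a difference of 0.24 ± 0.26 that was not called. At clustering resolution 2, with rich cells in the monocyte class, it was 454 and 600.4 CPM against 2983 CPM, which edgeR called lower at the adjusted threshold of 0.05, and without the rich cells 454 and 402 CPM against 371 CPM. How far free RNA makes up the Ighm levels outside the B lineage, or the Igkc difference in the plasmacytoid dendritic class, was not tested.

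In the early progenitor class, whose leading genes included Dntt, Cd34 and Flt3, Ighm was 211, 250 and 657 CPM without the rich cells. Both fusion libraries lay below the wild-type library (-1.52 ± 0.19, edgeR adjusted p = 2.58e-05). Ighd was 3.48, 3.73 and 12.8 CPM (-1.83 ± 0.39, edgeR adjusted p = 0.00720) and Mzb1 4.75, 3.99 and 15.2 CPM (-1.81 ± 0.35, edgeR adjusted p = 0.00358). These were 3 of 9 genes called, against 2.88% of 11061 genes called lower. With the rich cells included 6 of 9 were called (2.91% of 11093 genes called lower), Ighm being -3.53 ± 0.32 and Igha -7.21 ± 0.23, whereas Igkc, Iglc3 and Jchain were not. On those sums DESeq2 called none of Ighm, Ighd and Mzb1 (adjusted p of 0.0507, 0.99998 and 0.534), Ighd was not called at Leiden resolution 0.5 (-1.54 ± 0.36, edgeR adjusted p = 0.0525), and Ighm was -3.06 without fusion library 1 and -4.23 without fusion library 2. The genotypes differed in which cells the class held: 84 of 311, 88 of 312 and 323 of 466 cells had at least 2 UMIs of Dntt, the terminal transferase of lymphoid progenitors. In those cells Ighm was 618, 649 and 883 CPM, and in cells without a Dntt UMI it was 48.9, 70.4 and 112 CPM. At Leiden resolution 2, where a lymphoid progenitor cluster of 68, 64 and 301 cells split off, Ighm was 800, 892 and 993 CPM in that cluster and 76.5, 85.9 and 117 CPM in the remaining early progenitors, and the difference in the remaining class was -0.52 ± 0.17, edgeR adjusted p = 0.299. Of the B cell receptor list, 3 of 11 tested genes were lower in the fusion libraries in the class without rich cells, Cd72 (-0.91 ± 0.20), Blk (-2.87 ± 0.80), a Src family kinase, and Blnk (-1.73 ± 0.20), the B cell linker. In the secretory list Sdc1 was lower (-1.81 ± 0.27) and Fkbp11, a prolyl isomerase, higher (1.28 ± 0.30) among 14 tested.

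Across 39 sums of a class in a library with at least 50 cells each, the genes whose log2(CPM + 1) followed each of the 9 most closely were taken, 3 for each, rich cells left out. Cd79a, Pax5 and Vpreb3 followed Igkc (Pearson r 0.957, 0.948 and 0.944), and Tnfrsf13c, the BAFF receptor, Bach2 and Fam129c followed Ighd (0.975, 0.944 and 0.943). Fcmr led for Iglc1 (0.960) and Fcer2a for Iglc2 (0.922), whereas Lynx1, Cacna1e and H2-DMb2 followed Iglc3 (0.926, 0.906 and 0.893). Fcrla, Blnk and Chst3 followed Mzb1 (0.968, 0.964 and 0.953), and Arl5c, Ifi209 and Pik3ap1 followed Ighm (0.911, 0.910 and 0.908). For Jchain and Igha the closest were AY036118 (0.742) and Trim34a (0.689). Sums of 1 library share its depth and free RNA, so these values describe likeness of pattern only.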

How the data were processed

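Droplet 3' single-cell RNA was measured in 3 mouse bone marrow libraries. Per the submitters' processing notes, Cell Ranger 5.0.1 and bcl2fastq 2.20.0.422 were used, and per the file headers the matrices were written by Cell Ranger 5.0.0. The authors deposited UMI counts per gene and barcode, not normalized. Gene positions are from GENCODE M21.

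Barcodes needed 1000 UMIs, 400 genes and a mitochondrial share no higher than 10%. Doublet prediction then took out 225, 318 and 194 cells. The 2000 most variable genes, without immunoglobulin, T cell receptor, Jchain and Mzb1 genes, gave 30 principal components, 15 neighbours and 28 Leiden clusters at resolution 1 (Python 3.11.15, scanpy 1.11.5). Clusters were named from marker lists.

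Counts were summed per class and library and tested with edgeR 4.0.16 quasi-likelihood (R 4.3.3), fusion over wild type, with Benjamini-Hochberg adjustment over all genes passing edgeR's filter and a threshold of 0.05. The design has 2 libraries against 1. Totals were 97192347, 111836603 and 93262028 UMIs. Levels are plain CPM. The script was tested on simulated data.

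The genes, lists (B cell receptor, plasma cell and secretory, other constant genes, surrogate light chain) and tests were chosen with earlier results of these data known. Named genes were the 9 genes, the 3 most correlated with each, list genes called in a B lineage class and otherwise the 2 with the largest change. Called list genes of the early progenitor class were added after their values were seen. Alternatives were DESeq2 1.42.0, its size factors, no gene filter, immunoglobulin genes left out of library sizes, other Leiden resolutions, doublets kept, a stricter cell filter, each fusion library left out and immunoglobulin-rich cells left out.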

Additional observations from a re-analysis of the deposited data

Results flagged for a closer look

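Immunoglobulin-rich cells were also found among the cells removed as predicted doublets, which the main comparisons do not use: 4 in fusion library 1 and 3 in fusion library 2, against 0 in the wild-type library. The 7 cells held 841 to 16020 immunoglobulin constant UMIs each. The doublet caller marked 2.98%, 4.41% and 2.54% of all cells in the 3 libraries. Whether these 7 cells are doublets was not tested.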

How the results depend on the processing

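Of 484 values recomputed under an alternative, 414 kept their direction, side of the threshold or size, 37 moved, 14 reversed, 13 lost a call and 6 gained one. Some of the 414 could not have changed. Sums over all cells do not depend on the Leiden resolution, and leaving out rich cells does not alter a class that holds none. No paired analysis was possible because the labels give the libraries no shared replicate numbers. The number of the 9 genes called in the B lineage classes was 0, and 1 at Leiden resolution 0.5, at resolution 2, with doublets kept, and under the stricter filter, where only pro-B cells could be fitted. With DESeq2, 0 other genes of the pathway were called in these classes, against 1 with edgeR. With doublets kept, mean Ighm in the pre-B to mature class was 6385 CPM (7124 CPM without them), Igkc was found in 3.44% of thinned wild-type erythroid progenitors (2.98%), and the plasma cell gate held 8 and 4 cells in fusion libraries 1 and 2. With 3 gate genes it held 0, 1 and 7 cells with doublets removed and 4, 3 and 7 with doublets kept. Mixed light chain cells were 69.8% with 20 UMIs and 73.1% at 95% dominance.

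Reversed log2 values with doublets kept were Igha in B cells (5.12, edgeR adjusted p = 0.000606, where fusion library 2 holds a rich cell), Igha and Iglc2 over all cells (0.47 and 1.24) Igkc in pro-B cells (0.0228, also with rich cells left out) and Igkc in T and NK cells (0.37, and 1.13 with rich cells left out). Under the stricter filter Igkc and Iglc1 in pro-B cells were 0.0187 and 0.15. Leaving out 1 fusion library gave ranges of -0.76 to 0.33 for Igha and -0.51 to 0.42 for Iglc1 in B cells, and, in pro-B cells, -0.18 to 0.088 for Igkc and -0.0076 to 0.065 for Mzb1, with 0.68 for Iglc1 without fusion library 2. Other causes of these changes were not tested. Every genotype comparison rests on 1 wild-type library.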
